A study of Mus musculus with 11 samples.

Results

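Signal of mouse probes in A375 xenografts was compared between tumors given PLX4720 together with bevacizumab (COMBO, 2 arrays) and tumors given bevacizumab alone (3 arrays). Every gene was taken whose probe had a detection p under 0.05 on 1 or more of these 5 arrays, which gave 9207 of the 10933 genes tested over the 11 arrays of the series. The choice used no difference between the groups. A375 is an established human melanoma line that carries mutant BRAF, and it was grown under the skin of female CD1 athymic mice, 6 weeks old when injected, until tumors measured 150 to 200 mm3. COMBO mice received PLX4720 at 60 mg/kg by gavage every day plus bevacizumab at 10 mg/kg by intraperitoneal injection 3 times a week, and bevacizumab mice received the antibody without PLX4720. PLX4720 alone (3 arrays) and vehicle (methylcellulose, 3 arrays) form the matching pair without bevacizumab, and all tumors are labelled 12 day. Athymic mice make almost no T cells but keep myeloid cells, B cells and natural killer cells. RNA came from whole tumors, so human and mouse RNA shared an extract, and the probes of the MouseWG-6 v2.0 bead array were designed on mouse transcripts. Whether RNA of the human A375 cells also bound some of these probes was not tested, so each value below, that of Kiss1 included, is the signal of a mouse probe and not proof that host cells made the RNA.

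PLX4720 inhibits the mutant BRAF kinase and so lowers MEK and ERK signaling in melanoma cells, whereas host cells carry normal BRAF. Bevacizumab is an antibody that binds human VEGF-A, here made by the tumor cells, and it binds mouse VEGF-A poorly. VEGF-A keeps tumor endothelium growing, and hypoxia raises its expression through hypoxia-inducible transcription factors. The question of this comparison was therefore what a BRAF inhibitor does to stroma, vessels and leukocytes while VEGF is blocked.

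All values below are log2 signals, that is the log2 of a probe's background-corrected and quantile-normalized brightness, and a difference of 1 is a 2-fold difference. A probe counted as detected where it was brighter than the negative control beads at a detection p under 0.05, which held for 11536 and 12315 of 45281 probes on the COMBO arrays and for 11178 to 11797 on the bevacizumab arrays. The 2 COMBO arrays correlated at 0.9593 over all genes, the bevacizumab arrays at 0.9333 to 0.9539 with each other, and COMBO with bevacizumab arrays at 0.9096 to 0.9484. The median SD of a gene was 0.196 over the 2 COMBO arrays and 0.32 over the 3 bevacizumab arrays. A median SD of 2 values runs lower than that of 3, so these numbers do not show that COMBO tumors were more alike. The labels do not name single animals and the study's methods call the arrays biological replicates, so p-values measure the spread between these arrays. In whole tumors, fewer cells of a type and less RNA per cell cannot be told apart. COMBO replicate 1 stood apart from COMBO replicate 2 in genes of muscle, fat and T cells, with values given below.

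With PLX4720 added to bevacizumab, the signal of Kiss1, Mmp12 and Mmp10 lay below detection, Mgarp fell close to it, and Ppp1r9a rose above it. In limma's test across all genes, 4 genes fell (0.0366% of 10933) and 1 rose (0.00915%) at an adjusted p under 0.05. Kiss1, which encodes the kisspeptin peptides known as metastasis suppressors in melanoma and as regulators of reproduction, had a log2 signal of 5.50 and 5.46 in COMBO tumors, against 11.10, 10.72 and 11.34 in bevacizumab tumors. It was detected on every bevacizumab array and on no COMBO array, which puts it at least 39.2-fold lower in COMBO tumors (adjusted p = 0.00142). Such lower bounds set the mean of the bright group against the dimmest detected signal on each array of the other group. Mmp12, the macrophage metalloelastase that degrades elastin, measured 5.01 and 4.90 in COMBO tumors, against 8.08, 8.20 and 8.08 in bevacizumab tumors. It was at least 5.14-fold lower in COMBO tumors and again undetected there (adjusted p = 0.00376). Mmp10, or stromelysin-2, a protease of matrix proteins, had 5.51 and 5.19 in COMBO tumors, against 8.45, 7.91 and 8.37 in bevacizumab tumors, at least 5.6-fold lower in COMBO tumors (adjusted p = 0.039). Mgarp, a mitochondrial protein known from neurons to bind the transport machinery under low oxygen, had 5.52 and 5.80 in COMBO tumors, against 8.21, 7.73 and 8.52 in bevacizumab tumors and was detected on 1 of 2 COMBO arrays (log2 fold change -2.49, SE 0.32, adjusted p = 0.0145). Ppp1r9a, which encodes neurabin-1, an actin-binding scaffold for protein phosphatase 1, was the gene that rose, with 7.19 and 6.99 in COMBO tumors, against 4.70, 4.84 and 4.78 in bevacizumab tumors. It was detected on both COMBO arrays and on no bevacizumab array, at least 2.41-fold higher in COMBO tumors (adjusted p = 0.0145). In all 5 genes the groups lay apart by more than the spread within either of them, as the plot of the 5 genes on each array shows.

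**Figure D1:**
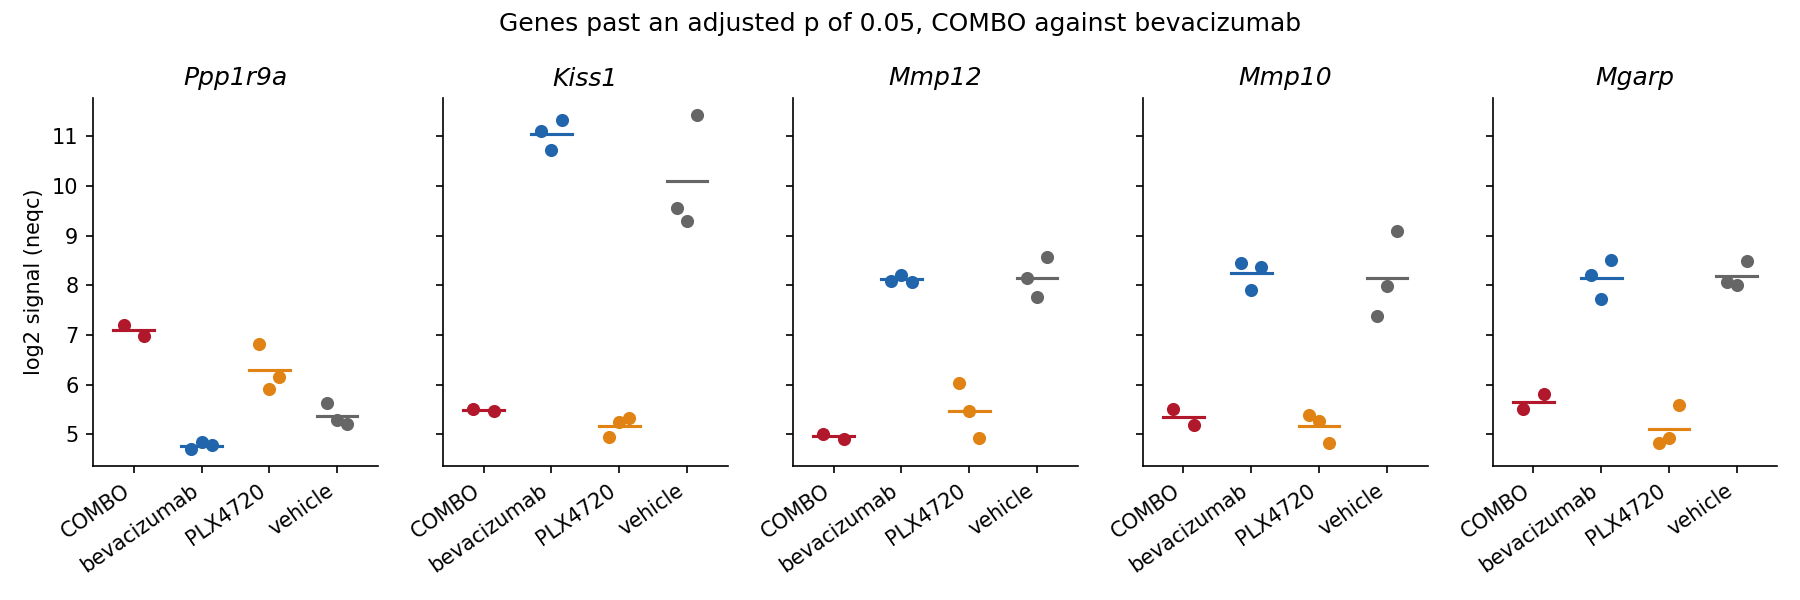
Log2 signal of the 5 genes past an adjusted p of 0.05 in COMBO against bevacizumab, 1 panel per gene, with a point per array and a line at the group mean for COMBO, bevacizumab, PLX4720 and vehicle. Kiss1 sits at 5.50 and 5.46 in COMBO tumors and at 10.72 to 11.34 in bevacizumab tumors, and the PLX4720 tumors lie near the COMBO tumors in every panel except that of Ppp1r9a, where they lie between 5.91 and 6.83.

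The adjusted calls depended on single arrays. Without bevacizumab replicate 1 or replicate 3 only Kiss1 and Mmp12 passed an adjusted p of 0.05 in limma. Without COMBO replicate 1, or without COMBO replicate 2, the COMBO group is 1 array. The fit assumes that this array varies like the other groups, and its calls rest on that assumption. The fitted log2 differences without COMBO replicate 1 were -5.59 for Kiss1, -3.22 for Mmp12, -3.06 for Mmp10, -2.35 for Mgarp and 2.21 for Ppp1r9a. None of the 5 changed sign in any of 22 alternatives. Kiss1 passed in 20 of 22 alternative settings, Mmp12 in 18, Ppp1r9a in 14, Mgarp in 13 and Mmp10 in 9. Of these settings 1 is the same fit at an adjusted p under 0.1, which a gene past 0.05 cannot fail. At an adjusted p under 0.1, 3 further genes passed. Tlr2, a receptor for bacterial lipoproteins, was higher in COMBO tumors, with 10.75 and 10.87 in COMBO tumors, against 8.99, 9.15 and 9.54 in bevacizumab tumors (adjusted p = 0.0783). Hpgd, the enzyme that inactivates prostaglandins, had 6.55 and 7.18 in COMBO tumors, against 4.94, 5.12 and 4.94 in bevacizumab tumors, at least 2.06-fold higher in COMBO tumors (adjusted p = 0.0783). Vegfc, the growth factor of lymphatic vessels, had 5.33 and 5.30 in COMBO tumors, against 7.15, 6.56 and 7.12 in bevacizumab tumors, at least 2.27-fold lower in COMBO tumors (adjusted p = 0.0852).

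The promoters of the 4 genes that fell are printed because these genes moved together and 2 of them encode metalloproteinases. They are RefSeq sequences of mouse build GRCm38.p6, from 250 bases before to 50 bases after the start of the gene, read 5′ to 3′ on the gene's strand. Capitals mark a match to TGANTCA, the AP-1 motif bound by Fos and Jun proteins, or to ACGTG or GCGTG, the core letters of hypoxia response elements, on either strand, with overlapping matches counted apart. Kiss1 lies on the plus strand at chr1:133326962-133327261. Mmp12 is shown for the first of its 2 listed start sites, on the plus strand at chr9:7344147-7344446. Mmp10 lies on the plus strand at chr9:7502092-7502391, and Mgarp on the minus strand at chr3:51396498-51396797.
Kiss1: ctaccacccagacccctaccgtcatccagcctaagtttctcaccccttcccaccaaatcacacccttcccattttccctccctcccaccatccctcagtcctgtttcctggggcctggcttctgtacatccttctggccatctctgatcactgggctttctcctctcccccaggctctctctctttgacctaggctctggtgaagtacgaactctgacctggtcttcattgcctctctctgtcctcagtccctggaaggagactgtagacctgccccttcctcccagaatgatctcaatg
Mmp12: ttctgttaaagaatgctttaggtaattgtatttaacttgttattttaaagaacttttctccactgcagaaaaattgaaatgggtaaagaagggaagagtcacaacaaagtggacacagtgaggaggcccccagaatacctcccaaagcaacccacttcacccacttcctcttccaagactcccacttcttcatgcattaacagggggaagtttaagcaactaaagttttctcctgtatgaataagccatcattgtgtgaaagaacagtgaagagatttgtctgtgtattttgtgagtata
Mmp10: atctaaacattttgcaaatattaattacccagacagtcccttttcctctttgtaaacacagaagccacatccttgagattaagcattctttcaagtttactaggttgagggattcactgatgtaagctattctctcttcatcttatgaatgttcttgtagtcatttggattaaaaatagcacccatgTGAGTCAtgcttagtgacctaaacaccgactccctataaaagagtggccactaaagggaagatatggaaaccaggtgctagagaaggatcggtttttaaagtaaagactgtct
Mgarp: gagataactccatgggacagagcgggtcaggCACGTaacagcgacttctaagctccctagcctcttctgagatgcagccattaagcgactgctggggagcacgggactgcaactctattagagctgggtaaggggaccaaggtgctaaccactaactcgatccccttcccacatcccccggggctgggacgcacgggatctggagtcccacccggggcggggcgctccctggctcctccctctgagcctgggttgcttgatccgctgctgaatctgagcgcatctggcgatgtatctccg

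The Mmp10 window held 1 AP-1 match, TGAGTCA, from 63 to 57 bases before the start, and the other windows held none. Among 32851 listed promoters of the same length 7.81% held such a match, and among the 8803 promoters matched to tested genes 5.57% did. It stood in 3 of 12 promoters of matrix metalloproteinases and their inhibitors (25%), in 8 of 125 promoters of the genes lower at the methods' threshold (6.4%) and in 4 of 89 of those higher (4.49%). The Mgarp window held 1 hypoxia core, CACGT on the opposite strand, from 219 to 215 bases before the start, where 60.4% of the promoters of tested genes held at least 1. The window of Ppp1r9a, the gene that rose, held 4 hypoxia cores and no AP-1 match. These matches describe letters and do not show binding.

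At the threshold of the study's methods, which asks for an unadjusted p under 0.01 and a log2 fold change of 1 or more in either direction, 108 genes were higher (0.988% of all tested) and 160 were lower (1.46%) in COMBO than in bevacizumab tumors. The higher genes had a median log2 fold change of 1.27 and a maximum of 2.44, and the lower genes had a median of -1.46. COMBO and bevacizumab arrays did not overlap for any of these 268 genes. Over all genes tested, 1649 lay wholly higher (15.1%) and 1477 wholly lower (13.5%) in COMBO tumors, so a lack of overlap alone was common. Most genes named below were picked by threshold or low p. Their separation of the groups follows largely from that choice and adds no support. Of the higher genes 21 were detected on both COMBO arrays and on no bevacizumab array, and of the lower genes 26 were detected on all bevacizumab arrays and on no COMBO array. Over all 10933 genes tested, 135 had the first of these detection patterns and 76 the second. The median of the other detected probes of the same gene pointed the same way for 29 of 31 higher and 53 of 58 lower genes that had any. These other probes gave smaller values, with a median of 0.649 against 1.271 for the probes used in higher genes. In lower genes the medians were -0.803 and -1.626. Without COMBO replicate 1 the count was 137, with 67 higher and 70 lower, and 91 of these were among the 268. With median scaling in place of quantile normalization the split was 153 higher and 59 lower, and with housekeeping scaling 93 and 79.

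**Figure D2:**
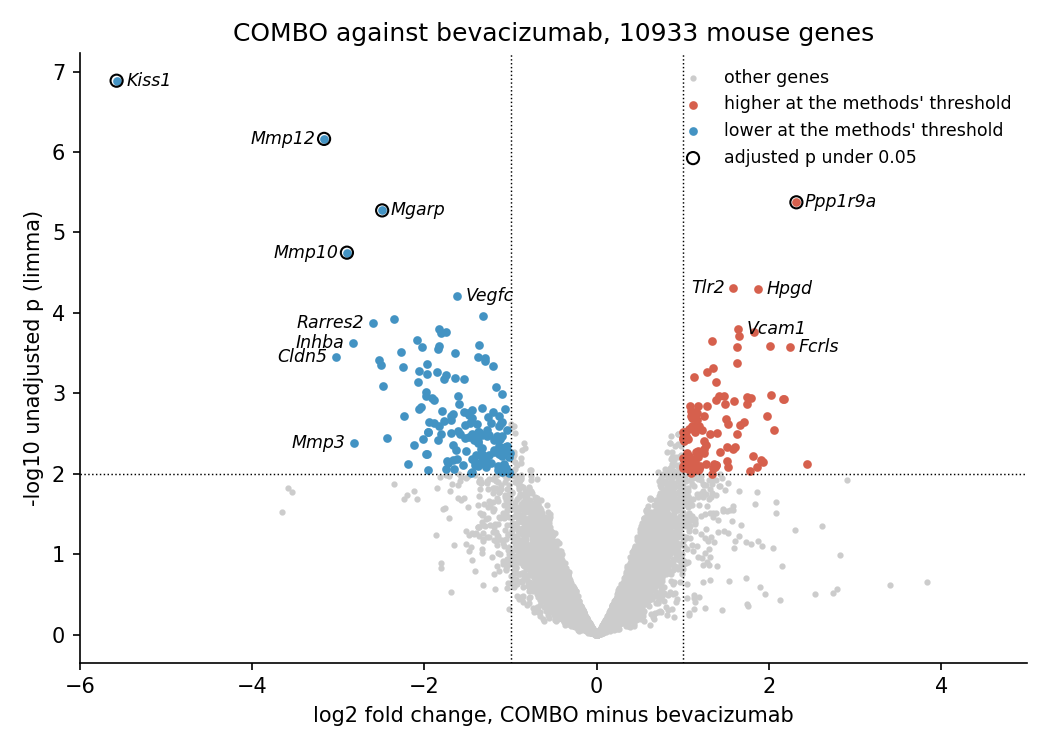
Log2 fold change of COMBO minus bevacizumab (x axis) against minus log10 of the unadjusted limma p (y axis) for 10933 mouse genes, with red and blue points for genes past the methods' threshold and rings for an adjusted p under 0.05. Of the colored points 108 lie to the right and 160 to the left, and the left arm reaches farther, to Kiss1, whose plotted value is the fitted one.

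Beyond the genes at the adjusted threshold, the genes with the next lowest p-values among those higher in COMBO tumors, after Tlr2 and Hpgd, were Vcam1, Cd14, Fcrls, Apoe, Il4i1, Sh3pxd2b and Map11. None of the genes in this paragraph passed the adjusted test in limma (adjusted p = 0.113 for each of them). Vcam1, an adhesion molecule that captures leukocytes, had 10.39 and 10.82 in COMBO tumors, against 8.88, 9.35 and 8.67 in bevacizumab tumors (log2 fold change 1.64, SE 0.30). Cd14, a coreceptor for lipopolysaccharide on monocytes and macrophages, had 11.20 and 12.31 in COMBO tumors, against 10.23, 10.16 and 9.93 in bevacizumab tumors. Fcrls, an Fc receptor-like protein of mouse macrophages and microglia, reached 12.75 and 13.75 in COMBO tumors, against 11.12, 10.48 and 11.41 in bevacizumab tumors (log2 fold change 2.25, SE 0.44). The COMBO arrays were the highest of the 5 in each of these genes, and both other probes of Fcrls pointed the same way, at 2.02 and 2.61. Apoe, a lipid carrier that macrophages make, had 14.11 and 14.80 in COMBO tumors, against 12.93, 12.69 and 12.87 in bevacizumab tumors. Il4i1, an amino acid oxidase of myeloid cells that limits T cells, measured 7.50 and 6.91 in COMBO tumors, against 6.04, 5.07 and 5.03 in bevacizumab tumors and was detected on 1 of 3 bevacizumab arrays. Sh3pxd2b, an adaptor of podosomes, had 7.87 and 8.45 in COMBO tumors, against 5.42, 6.09 and 6.93 in bevacizumab tumors. Its second probe, detected on 4 of the 5 arrays, gave 0.852, where the probe used gave 2.012. The bevacizumab arrays were the low ones in this gene, which had 7.73, 7.52 and 8.10 in PLX4720 tumors, against 7.39, 7.79 and 7.49 in vehicle tumors. Map11 had 10.16 and 10.11 in COMBO tumors, against 8.74, 8.94 and 8.69 in bevacizumab tumors, so the arrays of each group lay close together and the groups apart.

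Among genes lower in COMBO tumors the next p-values after Vegfc were those of Rarres2, Thy1, Nrn1, Nog and AA467197, none past the adjusted test (adjusted p = 0.113 for each). Rarres2, which encodes the chemoattractant chemerin, had 8.23 and 8.72 in COMBO tumors, against 11.39, 11.25 and 10.60 in bevacizumab tumors (log2 fold change -2.60, SE 0.47). Thy1, a surface glycoprotein of fibroblasts and T cells, had 8.84 and 9.47 in COMBO tumors, against 11.11, 10.77 and 10.83 in bevacizumab tumors (log2 fold change -1.75, SE 0.33). Both genes were high in all 3 bevacizumab tumors, and the groups did not overlap. Nrn1, a neuronal and vascular surface protein, had 9.41 and 8.46 in COMBO tumors, against 11.20, 11.28 and 11.37 in bevacizumab tumors. Nog, or noggin, which binds and blocks bone morphogenetic proteins, had 5.03 and 5.02 in COMBO tumors, against 6.33, 6.38 and 6.32 in bevacizumab tumors, at least 1.5-fold lower in COMBO tumors, where it was not detected. AA467197 measured 7.33 and 7.64 in COMBO tumors, against 9.75, 9.35 and 8.84 in bevacizumab tumors.

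Matrix genes of fibroblasts were lower in COMBO than in bevacizumab tumors as groups, although no collagen passed the adjusted test. Each list below is described by its counts at the methods' threshold and its median log2 fold change, beside a median of 0.01 over all genes tested. Of 10 fibrillar and type VI collagen chains tested, all 10 had lower means in COMBO tumors, 8 did not overlap between the groups (13.5% of all genes tested lay wholly lower), and 2 passed the methods' threshold (1.46% of all genes), with a median of -1.18. Col1a1, the main chain of type I collagen, had 8.29 and 9.86 in COMBO tumors, against 10.84, 11.22 and 10.58 in bevacizumab tumors (log2 fold change -1.81, SE 0.49, adjusted p = 0.242). Col5a1, a chain that seeds fibril assembly, had 9.63 and 10.51 in COMBO tumors, against 11.23, 11.57 and 11.09 in bevacizumab tumors, and Col6a1, of beaded microfibrils, had 9.04 and 9.88 in COMBO tumors, against 11.37, 11.27 and 11.30 in bevacizumab tumors. COMBO replicate 1 was the lowest array in all 3 of these chains, and COMBO replicate 2 still lay below every bevacizumab array. The median of the list stayed negative in all 21 alternatives, between -1.51 and -0.72.

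Of 18 fibroblast markers 14 had lower means in COMBO tumors, 3 were lower and 0 higher at the methods' threshold, and the median was -1.01. Tnc, or tenascin-C, a matrix glycoprotein of remodeling tissue, was 1 of the 3, with 8.24 and 9.44 in COMBO tumors, against 10.41, 10.71 and 11.26 in bevacizumab tumors (log2 fold change -1.95, SE 0.53, adjusted p = 0.242), beside Col1a1 and Thy1. Other probes of Tnc gave -2.197 and -0.604 with detection on all 5 arrays, and -1.162 with detection on 3 of them. The mean of the list was 7.95 and 8.68 on the COMBO arrays, against 8.98, 9.69 and 8.71 on the bevacizumab arrays, so COMBO replicate 2 and bevacizumab replicate 3 lay close together. Enzymes that modify and crosslink collagen had a median of -0.745 over 18 genes, with 17 lower means and 4 genes lower at the methods' threshold. Lox, the lysyl oxidase that starts crosslinks, had 7.79 and 8.82 in COMBO tumors, against 9.59, 11.24 and 10.21 in bevacizumab tumors (log2 fold change -2.04, SE 0.50, adjusted p = 0.213). Bmp1, which cuts the C-terminal propeptide from procollagens, had 8.23 and 8.67 in COMBO tumors, against 9.54, 10.72 and 9.91 in bevacizumab tumors, and P3h3, a collagen prolyl 3-hydroxylase, had 6.12 and 6.62 in COMBO tumors, against 8.32, 7.88 and 7.91 in bevacizumab tumors. P4ha2, a collagen prolyl 4-hydroxylase subunit that is also a hypoxia target, had 7.35 and 7.45 in COMBO tumors, against 9.23, 9.58 and 9.59 in bevacizumab tumors. In each of these enzymes both COMBO arrays lay below all bevacizumab arrays.

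Of 15 metalloproteinases and their inhibitors 4 were lower and 0 higher at the methods' threshold, with a median of -0.89. Beside Mmp12 and Mmp10, these were Mmp3, or stromelysin-1, with 7.23 and 9.32 in COMBO tumors, against 11.02, 11.17 and 11.08 in bevacizumab tumors, and Timp1, the inhibitor that fibroblasts secrete, with 10.28 and 11.22 in COMBO tumors, against 12.02, 12.45 and 12.12 in bevacizumab tumors. Mmp3 varied widely between the COMBO arrays (SD 1.48), and its log2 fold change was -2.81 (SE 0.79, adjusted p = 0.257). Mmp9, a gelatinase of neutrophils and macrophages, had 6.82 and 6.35 in COMBO tumors, against 8.44, 7.39 and 7.99 in bevacizumab tumors and missed both thresholds (adjusted p = 0.541). Proteases and an inhibitor thus stood in the same list, with lower signal for both.

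**Figure D3:**
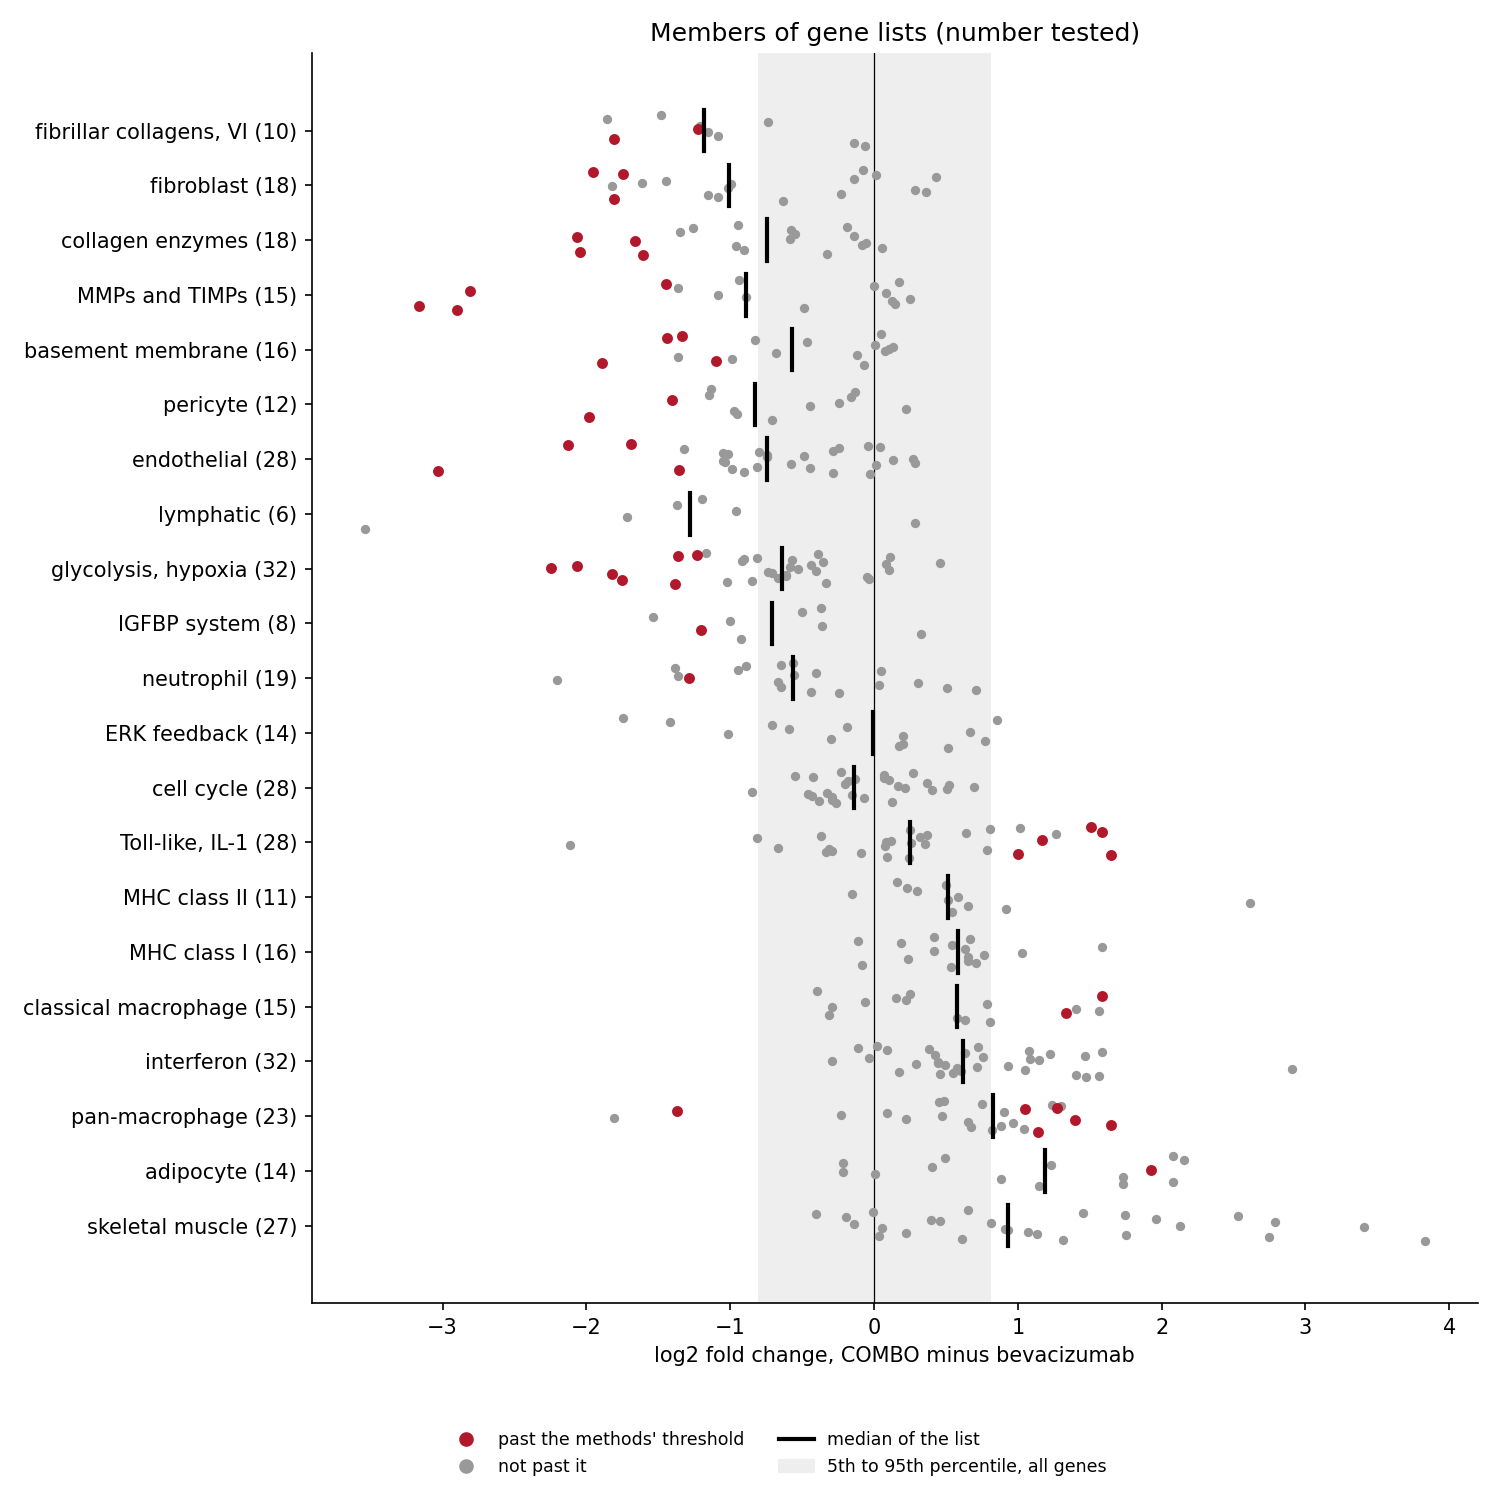
Log2 fold change of COMBO minus bevacizumab (x axis) for the tested members of 21 gene lists (rows, number tested in parentheses), with red points for genes past the methods' threshold, a bar at the median of each list and a grey band between percentiles 5 and 95 of all genes. The medians run from -1.28 for lymphatic genes and -1.18 for fibrillar collagens to 0.82 for pan-macrophage and 1.19 for adipocyte genes.

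Endothelial genes were lower in COMBO than in bevacizumab tumors, with Cldn5 showing the widest gap. Of 28 endothelial markers 23 had lower means, 12 did not overlap in that direction, against 13.5% of all genes, and 4 were lower at the methods' threshold, with a median of -0.74. Cldn5, the tight junction protein of endothelium, had 6.56 and 5.77 in COMBO tumors, against 9.78, 8.98 and 8.83 in bevacizumab tumors (log2 fold change -3.03, SE 0.61, adjusted p = 0.124). Vwf, the clotting factor stored in endothelial granules, had 7.56 and 6.75 in COMBO tumors, against 8.98, 8.89 and 8.66 in bevacizumab tumors. Tie1, an orphan receptor of endothelium, had 5.37 and 5.54 in COMBO tumors, against 8.02, 7.23 and 7.49 in bevacizumab tumors, at least 3.53-fold lower and undetected in COMBO tumors. Egfl7, a secreted endothelial protein, had 9.32 and 8.35 in COMBO tumors, against 10.59, 9.87 and 10.10 in bevacizumab tumors, and Emcn, or endomucin, a sialomucin of capillaries and veins, had 8.46 and 8.27 in COMBO tumors, against 9.28, 9.47 and 9.30 in bevacizumab tumors. All 5 genes, picked by threshold or low p, separated the groups, and bevacizumab arrays were the high ones. The defining markers Pecam1 and Cdh5 had lower means in COMBO tumors, with log2 fold changes of -0.49 (SE 0.29) and -0.90 (SE 0.445), without passing the methods' threshold. The mean of the list was 7.01 and 6.68 on the COMBO arrays, against 7.80, 7.61 and 7.29 on the bevacizumab arrays, and the median was negative in all 21 alternatives.

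Among 23 genes of the VEGF and angiopoietin systems 5 were lower and 0 higher at the methods' threshold, while the median of -0.045 was near that of all genes and turned positive under median scaling and with the replicate block. The ligands of VEGF receptors among the 5 were Vegfc, given above, and Pgf. Pgf, or placental growth factor, a ligand of Flt1, had 5.09 and 4.87 in COMBO tumors, against 6.93, 7.05 and 7.22 in bevacizumab tumors, at least 2.48-fold lower in COMBO tumors (adjusted p = 0.113). Angpt2, the angiopoietin that tip cells and stressed vessels release, had 7.77 and 7.22 in COMBO tumors, against 9.07, 9.61 and 9.35 in bevacizumab tumors (log2 fold change -1.85, SE 0.36, adjusted p = 0.113). Unc5b, a netrin receptor of tip cells, had 5.05 and 5.88 in COMBO tumors, against 8.10, 6.95 and 7.91 in bevacizumab tumors and was detected on 1 of 2 COMBO arrays, and the remaining gene was Tie1. Each ligand named was lower on both COMBO arrays than on any bevacizumab array.

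Pericyte genes had a median of -0.83 over 12 tested, with 11 lower means, 8 of them without overlap, against 13.5% of all genes, and 2 past the methods' threshold. Acta2, smooth muscle actin, had 9.75 and 11.32 in COMBO tumors, against 12.24, 12.43 and 12.88 in bevacizumab tumors (log2 fold change -1.98, SE 0.46, adjusted p = 0.196), and Mcam, an adhesion molecule of vessel walls, had 6.75 and 6.20 in COMBO tumors, against 8.31, 7.83 and 7.50 in bevacizumab tumors. Other probes of Mcam, detected on all 5 arrays, gave only -0.587 and -0.535, where the probe used gave -1.403. Cspg4, the NG2 proteoglycan that marks pericytes, had 6.77 and 6.86 in COMBO tumors, against 8.09, 7.72 and 7.55 in bevacizumab tumors. Acta2 varied between the COMBO arrays (SD 1.11), and all COMBO arrays lay below the bevacizumab arrays in these genes. Basement membrane genes had a median of -0.57 over 16, with 4 lower at the methods' threshold. Col15a1, a collagen that ties basement membranes to matrix, had 5.89 and 7.55 in COMBO tumors, against 8.80, 8.72 and 8.30 in bevacizumab tumors. Col18a1, the source of endostatin, had 8.62 and 8.54 in COMBO tumors, against 9.89, 9.69 and 9.47 in bevacizumab tumors, and Col4a1, the scaffold chain of basement membranes, had 9.78 and 10.04 in COMBO tumors, against 11.01, 10.89 and 10.81 in bevacizumab tumors. The linker proteins Nid1, with 6.41 and 7.24 in COMBO tumors, against 7.65, 8.79 and 8.35 in bevacizumab tumors, and Nid2, with 5.19 and 5.31 in COMBO tumors, against 6.25, 6.64 and 6.88 in bevacizumab tumors, passed as well, and Nid2 was at least 1.78-fold lower and undetected in COMBO tumors. Col4a1 stayed just short of the threshold, with a log2 fold change of -0.99 (SE 0.26).

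Lymphatic genes gave the lowest median of the vascular lists, -1.28 over 6 genes, with 5 lower and none past either threshold. Lyve1, a hyaluronan receptor of lymphatic endothelium and some macrophages, had 6.42 and 7.18 in COMBO tumors, against 7.86, 9.20 and 8.48 in bevacizumab tumors, and Pdpn, or podoplanin, of lymphatics and fibroblasts, had 9.27 and 9.50 in COMBO tumors, against 10.63, 10.96 and 10.68 in bevacizumab tumors. Ccl21a, a chemokine that draws lymphocytes and dendritic cells to lymph vessels, had 7.77 and 4.88 in COMBO tumors, against 10.20, 9.40 and 9.997 in bevacizumab tumors, with detection on 1 of 2 COMBO arrays. Its COMBO arrays lay far apart (SD 2.04), and near-identical Ccl21 copies share sequence, so this probe may read more than 1 gene.

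Glucose transport and hypoxia-induced genes were lower in COMBO than in bevacizumab tumors in 28 of 32 genes tested, 23 of them without overlap, against 13.5% of all genes. At the methods' threshold 7 were lower and 0 higher, and the median was -0.64, negative in all 21 alternatives. Slc2a1, the glucose transporter GLUT1, had 9.08 and 9.21 in COMBO tumors, against 10.62, 10.25 and 10.66 in bevacizumab tumors (log2 fold change -1.36, SE 0.26, adjusted p = 0.113). Ndrg1, a stress gene induced under low oxygen, had 7.46 and 8.28 in COMBO tumors, against 10.26, 9.70 and 10.39 in bevacizumab tumors (log2 fold change -2.24, SE 0.47, adjusted p = 0.131). Slc2a3, the transporter GLUT3, had 6.51 and 6.84 in COMBO tumors, against 7.52, 8.13 and 8.06 in bevacizumab tumors. In these 3 genes the COMBO arrays lay together below the bevacizumab arrays, as they did for P4ha2 above. Egln3, a prolyl hydroxylase that marks hypoxia-inducible factors for decay, had 5.62 and 6.71 in COMBO tumors, against 8.25, 7.71 and 8.01 in bevacizumab tumors, with a second probe at 0.41 in the other direction. Adm, the vasodilator adrenomedullin, had 5.19 and 5.49 in COMBO tumors, against 6.92, 7.08 and 6.17 in bevacizumab tumors, at least 1.95-fold lower in COMBO tumors, and Ankrd37, a hypoxia target, had 5.13 and 6.69 in COMBO tumors, against 7.78, 7.21 and 8.005 in bevacizumab tumors. Egln3 and Ankrd37 were each detected on 1 of 2 COMBO arrays.

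The promoters of Slc2a1 and P4ha2 are printed as examples of hypoxia-regulated genes past the methods' threshold that hold more than 1 core match, and they were chosen after their values were seen. Both are RefSeq GRCm38.p6 windows with the capitals as above, Slc2a1 on the plus strand at chr4:119108495-119108794 and P4ha2 on the plus strand at chr11:54100674-54100973.
Slc2a1: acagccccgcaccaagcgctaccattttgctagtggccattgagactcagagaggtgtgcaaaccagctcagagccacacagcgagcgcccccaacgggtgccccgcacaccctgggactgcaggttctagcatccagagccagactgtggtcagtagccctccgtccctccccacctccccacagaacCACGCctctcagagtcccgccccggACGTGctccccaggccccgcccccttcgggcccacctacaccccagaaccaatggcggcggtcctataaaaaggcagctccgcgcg
P4ha2: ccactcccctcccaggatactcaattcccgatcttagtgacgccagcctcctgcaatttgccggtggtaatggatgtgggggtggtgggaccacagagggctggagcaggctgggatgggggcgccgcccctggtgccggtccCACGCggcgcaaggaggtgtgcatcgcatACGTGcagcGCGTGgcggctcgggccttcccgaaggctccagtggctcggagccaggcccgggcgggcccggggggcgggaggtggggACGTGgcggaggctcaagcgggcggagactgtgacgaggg

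Slc2a1 held 2 hypoxia cores, at 61 to 57 and 36 to 32 bases before the start, and P4ha2 held 4. At least 1 core stood in 21 of 28 promoters of the glucose and hypoxia list (75%), against 60.4% of the promoters of tested genes and 43.8% of all promoters listed. Among genes at the methods' threshold the share was 52.0% for those lower and 52.8% for those higher in COMBO tumors, so the core did not distinguish the directions.

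Of 19 genes of the TGF-beta and activin family 3 were lower and 0 higher in COMBO tumors at the methods' threshold, with 13 lower and 6 higher means and a median of -0.33. Inhba, the subunit of activin A, had 5.93 and 6.86 in COMBO tumors, against 8.23, 9.77 and 9.68 in bevacizumab tumors (log2 fold change -2.83, SE 0.55, adjusted p = 0.113). Acvr2b, an activin receptor, had 8.13 and 8.03 in COMBO tumors, against 9.34, 8.80 and 9.23 in bevacizumab tumors, and Ltbp4, which stores latent TGF-beta in matrix, had 6.54 and 6.31 in COMBO tumors, against 7.67, 7.42 and 7.47 in bevacizumab tumors. All 3 were lower on both COMBO arrays than on any bevacizumab array. Tgfb1 itself had 8.35 and 9.01 in COMBO tumors, against 9.71, 8.66 and 8.64 in bevacizumab tumors, and the groups overlapped (adjusted p = 0.955). The insulin-like growth factor binding proteins had a median of -0.71 over 8 genes. Igfbp3, a carrier that hypoxia induces, had 9.67 and 9.41 in COMBO tumors, against 10.63, 10.87 and 10.72 in bevacizumab tumors and passed the methods' threshold, while Igfbp6, with 5.62 and 5.91 in COMBO tumors, against 7.45, 7.54 and 6.92 in bevacizumab tumors, and the matrix protease Htra1, with 7.52 and 7.72 in COMBO tumors, against 8.55, 8.43 and 8.65 in bevacizumab tumors, did not. A further probe of Igfbp3, detected on all 5 arrays, gave only -0.53, where the probe used gave -1.201.

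Macrophage genes were higher in COMBO than in bevacizumab tumors. Of 23 general leukocyte and macrophage markers 20 had higher means, 16 of these without overlap against 15.1% of all genes, and the median was 0.82, between 0.635 and 0.883 over 21 alternatives. At the methods' threshold 5 were higher and 1 was lower, and none passed the adjusted test. Adgre1, which encodes an adhesion receptor that marks mouse macrophages, had 11.27 and 11.52 in COMBO tumors, against 9.74, 10.45 and 10.58 in bevacizumab tumors (log2 fold change 1.14, SE 0.31, adjusted p = 0.242). Cx3cr1, the fractalkine receptor of monocytes, had 10.60 and 10.75 in COMBO tumors, against 9.28, 9.01 and 9.54 in bevacizumab tumors (log2 fold change 1.40, SE 0.38, adjusted p = 0.242). The lysozyme genes Lyz1, with 15.78 and 15.81 in COMBO tumors, against 14.42, 15.27 and 14.56 in bevacizumab tumors, and Lyz2, with 14.32 and 14.42 in COMBO tumors, against 12.99, 13.68 and 12.63 in bevacizumab tumors, are near-identical copies, and their probes may read each other's RNA. With Cd14 these were the 5 higher genes, and both COMBO arrays exceeded every bevacizumab array in each. Other probes of Lyz1, detected on 4 of the 5 arrays, gave 0.55 and 0.572, where the probe used gave 1.047. Those of Lyz2 gave 1.191 with detection on all 5 arrays and 0.559 with detection on 1. Lgals3, or galectin-3, a lectin of macrophages and stromal cells, was the lower one, with 11.64 and 12.000 in COMBO tumors, against 13.19, 12.97 and 13.41 in bevacizumab tumors. The mean of the list was 10.27 and 10.59 on the COMBO arrays, against 9.81, 9.66 and 9.98 on the bevacizumab arrays.

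Genes of classical activation had a median of 0.58 over 15, with 2 higher and 0 lower at the methods' threshold, Tlr2 and Cd86. Cd86, a costimulatory ligand for T cells, had 9.29 and 9.33 in COMBO tumors, against 6.98, 8.71 and 8.24 in bevacizumab tumors. Its other probes, detected on all 5 arrays, gave 0.646 and 1.18, where the probe used gave 1.333. Il1b, the inflammatory cytokine, had 9.18 and 10.11 in COMBO tumors, against 9.01, 7.82 and 9.74 in bevacizumab tumors, and Cd40, a receptor of the TNF family, had 9.17 and 8.05 in COMBO tumors, against 7.79, 7.99 and 8.32 in bevacizumab tumors. Cxcl10, a chemokine induced by interferon, had 9.70 and 7.85 in COMBO tumors, against 6.76, 7.49 and 7.37 in bevacizumab tumors, Cxcl9, of the same family, had 12.64 and 10.38 in COMBO tumors, against 9.53, 10.47 and 10.32 in bevacizumab tumors, and Ccl5, a chemokine for T cells and monocytes, had 11.002 and 9.65 in COMBO tumors, against 10.03, 9.13 and 9.39 in bevacizumab tumors. COMBO replicate 1 carried most of the difference in Cd40, Cxcl10, Cxcl9 and Ccl5. Cd40, Cxcl9, Ccl5 and Il1b overlapped between the groups, and Cxcl10 did not. Alternative activation genes had a median of 0.26 over 20, with 1 higher and 2 lower at the methods' threshold. Stab1, a scavenger receptor, was the higher one, with 9.54 and 10.22 in COMBO tumors, against 7.67, 8.70 and 8.72 in bevacizumab tumors, although its other probes gave 0.13 and 1.17. Arg1, the arginase of alternatively activated macrophages, was lower, with 10.06 and 10.32 in COMBO tumors, against 11.75, 11.77 and 12.37 in bevacizumab tumors (log2 fold change -1.77, SE 0.39, adjusted p = 0.147), as was Mmp12. Il10, an anti-inflammatory cytokine, was not detected on any of the 5 arrays, and no fold is given.

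Toll-like and interleukin-1 family genes gave 5 of 28 higher and 0 lower at the methods' threshold, with a median of 0.25. Beside Tlr2 and Cd14, Tlr8, an RNA sensor, had 6.42 and 7.43 in COMBO tumors, against 5.14, 5.98 and 5.13 in bevacizumab tumors with detection on 1 of 3 bevacizumab arrays. Il18, a cytokine released by inflammasomes, had 7.35 and 7.41 in COMBO tumors, against 6.58, 6.52 and 6.04 in bevacizumab tumors, and Osm, or oncostatin M, of the interleukin-6 family, had 8.99 and 9.04 in COMBO tumors, against 7.83, 7.22 and 8.49 in bevacizumab tumors. All 5 separated the groups, with COMBO higher. Il6ra, the interleukin-6 receptor chain, had 7.65 and 7.97 in COMBO tumors, against 7.31, 7.61 and 7.45 in bevacizumab tumors, and Irf2, a regulator of interferon genes, had 10.56 and 10.59 in COMBO tumors, against 9.35, 9.95 and 9.62 in bevacizumab tumors and stayed just below a log2 fold change of 1. The study's text names 19 genes of immunity and matrix for these tumors, of which 18 were tested and 3 were higher and 5 lower at the methods' threshold. Those genes were chosen on these same arrays and give no independent evidence of a direction.

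Interferon and antigen presentation genes had mostly higher means in COMBO tumors, without single calls. Of 32 interferon-stimulated genes 29 had higher means in COMBO tumors and 0 passed the methods' threshold. Their median was 0.62, between 0.32 and 1.038 over 21 alternatives. The interferon mean was 9.30 and 8.67 on the COMBO arrays, against 8.08, 8.39 and 8.20 on the bevacizumab arrays. COMBO replicate 1 thus lay farther above the bevacizumab arrays than COMBO replicate 2. Mx1, an antiviral GTPase, had 6.35 and 6.26 in COMBO tumors, against 4.94, 5.19 and 5.35 in bevacizumab tumors, at least 1.4-fold higher in COMBO tumors, and Ifit3, an antiviral effector whose copies are alike in sequence, had 10.94 and 10.16 in COMBO tumors, against 7.95, 8.75 and 6.22 in bevacizumab tumors. Ifit3 varied among the bevacizumab arrays (SD 1.29), and its log2 fold change was 2.91 (SE 0.98, adjusted p = 0.336). A second probe of Ifit3, detected on all 5 arrays, gave only 1.435. MHC class I genes had a median of 0.59 over 16 and class II genes 0.51 over 11, again with 0 past the methods' threshold. The class II mean was 10.51 and 9.46 on the COMBO arrays, against 9.44, 9.39 and 9.25 on the bevacizumab arrays, so it was COMBO replicate 1 that stood apart, and without that array the class II median was 0.087. H2-T23, a nonclassical class I gene, had 12.22 and 12.53 in COMBO tumors, against 11.48, 11.72 and 11.64 in bevacizumab tumors. Psmb9, an immunoproteasome subunit, had 10.08 and 7.05 in COMBO tumors, against 6.97, 6.68 and 7.28 in bevacizumab tumors, and H2-Aa, a class II alpha chain, had 10.98 and 5.24 in COMBO tumors, against 6.34, 5.12 and 5.01 in bevacizumab tumors. The last 2 were high on COMBO replicate 1 alone.

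Chemokine genes split evenly, with a median of -0.06 over 29 that changed sign in 5 of 21 alternatives, and 2 higher and 0 lower at the methods' threshold. Ccl8, a monocyte chemoattractant, had 13.09 and 13.39 in COMBO tumors, against 12.11, 12.31 and 11.56 in bevacizumab tumors and was higher beside Cx3cr1, while Cxcl14, a chemokine of fibroblasts and epithelium, had 8.62 and 10.53 in COMBO tumors, against 12.002, 10.89 and 10.86 in bevacizumab tumors, the COMBO arrays being lower. Neutrophil genes had a median of -0.56 over 19, with 1 lower at the methods' threshold. Ltf, or lactoferrin, had 4.88 and 5.09 in COMBO tumors, against 5.53, 6.41 and 6.88 in bevacizumab tumors, detected on 2 of 3 bevacizumab arrays and no COMBO array, at least 1.43-fold lower in COMBO tumors. Lcn2, or lipocalin-2, had 5.40 and 5.06 in COMBO tumors, against 8.60, 8.26 and 5.45 in bevacizumab tumors, with detection on 2 of 3 bevacizumab arrays, at least 3.2-fold lower in COMBO tumors. Bevacizumab replicate 3 lay with the COMBO arrays in this gene. Of 2 B cell genes tested, Cd22, an inhibitory receptor, was higher at the methods' threshold, with 6.80 and 7.20 in COMBO tumors, against 5.74, 6.05 and 5.71 in bevacizumab tumors. The other, Cd79b, a chain of the B cell receptor complex, had 6.24 and 6.09 in COMBO tumors, against 6.30, 6.18 and 6.92 in bevacizumab tumors, with overlap and a log2 fold change of -0.31.

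Signals of muscle, fat and T cells differed widely between arrays of the same group. With a muscle covariate in the fit, 4 genes passed the adjusted test in limma, namely Kiss1, Mmp12, Ppp1r9a and Mgarp. Mmp10 no longer passed it (adjusted p = 0.0799). At the methods' threshold 240 genes passed in that fit, of which 210 were among the 268. The part of fat and T cell signals in the results above was not tested. The mean of 27 skeletal muscle genes was 8.73 and 6.19 on the COMBO arrays, against 5.38, 8.19 and 5.23 on the bevacizumab arrays. Acta1, skeletal actin, had 13.35 and 9.32 in COMBO tumors, against 5.08, 12.80 and 4.65 in bevacizumab tumors, and Myl1, a myosin light chain, had 13.07 and 9.38 in COMBO tumors, against 5.98, 12.45 and 5.03 in bevacizumab tumors. Muscle signal was thus highest on COMBO replicate 1 and bevacizumab replicate 2. COMBO replicate 2 also lay above bevacizumab replicates 1 and 3, so muscle signal was not balanced between the groups. Of the 27 muscle genes 15 were detected on both COMBO arrays and 2 on all bevacizumab arrays, and no muscle gene passed a threshold. The mean of 14 adipocyte genes was 8.48 and 6.80 on the COMBO arrays, against 7.28, 6.67 and 5.66 on the bevacizumab arrays. Lpl, or lipoprotein lipase, of fat, muscle and macrophages, had 10.67 and 9.49 in COMBO tumors, against 8.88, 8.49 and 7.09 in bevacizumab tumors and passed the methods' threshold, and Pnpla2, a triglyceride lipase, had 10.72 and 9.74 in COMBO tumors, against 9.58, 8.87 and 8.55 in bevacizumab tumors. The brown fat genes Ucp1, the uncoupling protein, with 8.82 and 4.74 in COMBO tumors, against 4.75, 4.68 and 4.66 in bevacizumab tumors, and Cidea, a lipid droplet protein, with 9.10 and 4.71 in COMBO tumors, against 4.77, 4.97 and 4.73 in bevacizumab tumors, were detected on COMBO replicate 1 alone. The mean of 10 T cell genes was 7.36 and 6.00 on the COMBO arrays, against 6.30, 5.86 and 5.99 on the bevacizumab arrays, and Cd3e, a chain of the T cell receptor complex, had 8.41 and 4.94 in COMBO tumors, against 5.33, 4.96 and 4.97 in bevacizumab tumors. Without COMBO replicate 1 and bevacizumab replicate 2 together, 131 genes passed the methods' threshold, of which 83 were among the 268.

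**Figure D4:**
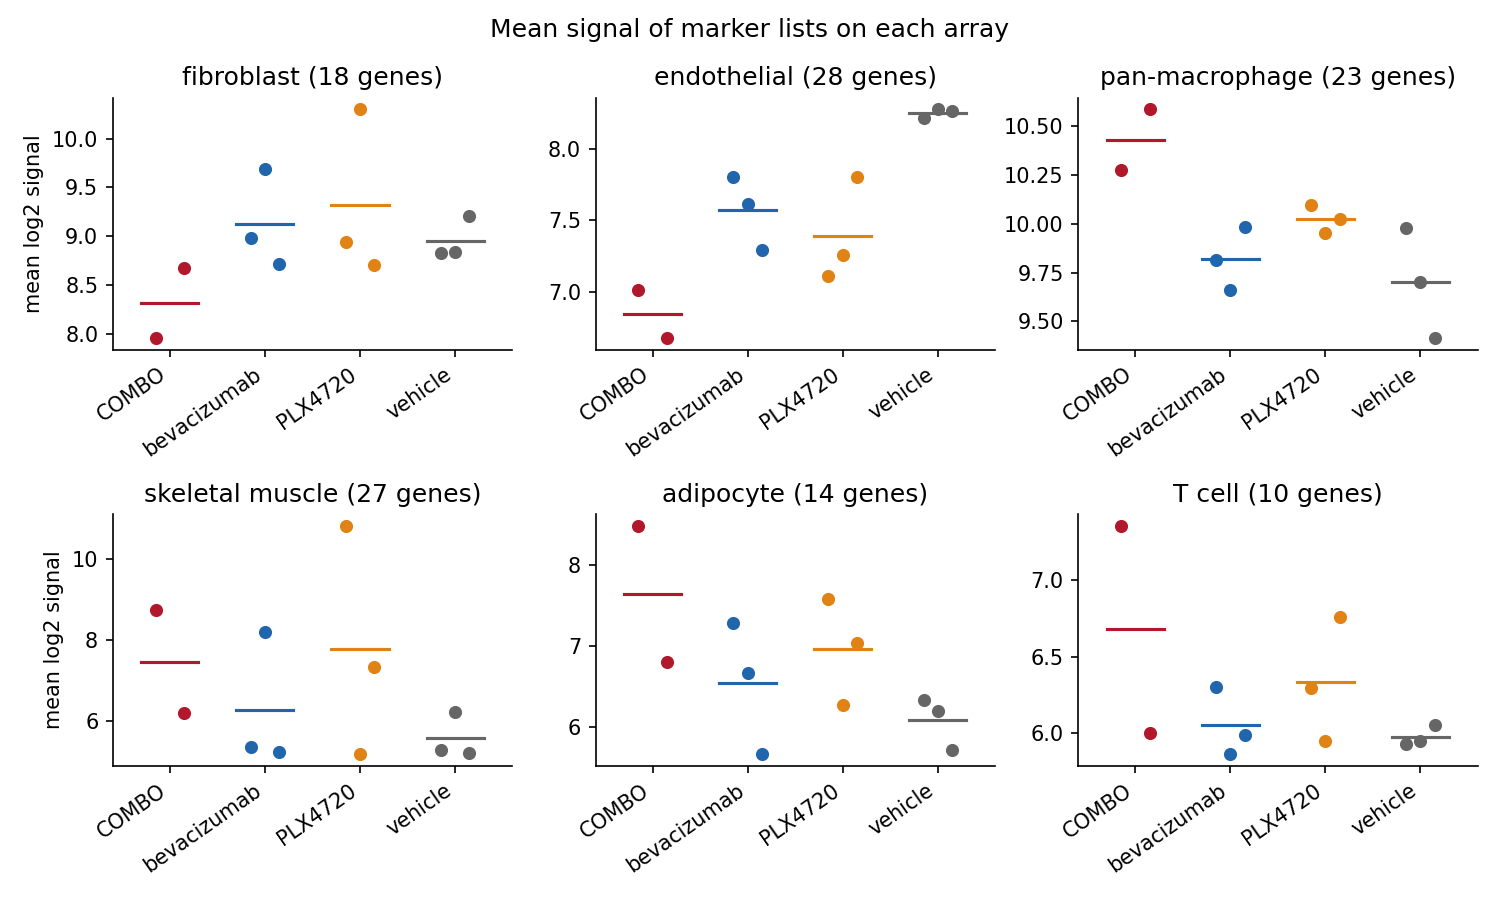
Mean log2 signal of 6 marker lists on each array (y axis), 1 panel per list, with a point per array and a line at the group mean for COMBO, bevacizumab, PLX4720 and vehicle. Fibroblast and endothelial means are lower and pan-macrophage means higher on both COMBO arrays than on any bevacizumab array, whereas muscle, adipocyte and T cell means are higher on COMBO replicate 1 than on any other of these 5 arrays.

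Regulators of growth factor signaling held few genes past the methods' threshold. Of 14 feedback regulators of ERK signaling 0 passed the methods' threshold and the median was -0.01. Dusp6, an ERK phosphatase, had 10.95 and 11.27 in COMBO tumors, against 10.22, 10.42 and 10.38 in bevacizumab tumors, with other probes at -0.05 and 0.70, and Spred1, an inhibitor of RAS signaling, had 8.44 and 9.15 in COMBO tumors, against 7.40, 8.16 and 8.26 in bevacizumab tumors. Spred2, of the same family, had 5.39 and 5.22 in COMBO tumors, against 7.17, 6.86 and 7.11 in bevacizumab tumors, at least 2.45-fold lower and undetected in COMBO tumors (adjusted p = 0.333). Dusp6 and Spred1 were thus higher and Spred2 lower on both COMBO arrays. Immediate early genes split into 7 higher and 8 lower means, with a median of -0.02 that changed sign in 11 of 21 alternatives, and 1 of 15 was higher at the methods' threshold. That gene was Zfp36, which destabilizes cytokine mRNAs, with 10.43 and 10.51 in COMBO tumors, against 9.38, 9.002 and 10.02 in bevacizumab tumors. Fos, an AP-1 subunit, had 10.64 and 10.57 in COMBO tumors, against 8.67, 8.34 and 10.05 in bevacizumab tumors, with no overlap, and Egr2, a zinc finger transcription factor, had 7.33 and 7.86 in COMBO tumors, against 8.02, 8.27 and 8.46 in bevacizumab tumors, the COMBO arrays being lower without overlap. Growth factors for receptor tyrosine kinases gave 2 of 16 higher. Hgf, the ligand of Met, had 6.33 and 6.50 in COMBO tumors, against 4.89, 4.91 and 4.99 in bevacizumab tumors, at least 1.51-fold higher in COMBO tumors and undetected in bevacizumab tumors. Bdnf, a neurotrophin, had 7.34 and 7.40 in COMBO tumors, against 6.17, 6.01 and 6.81 in bevacizumab tumors, and Igf1, an insulin-like growth factor, had 8.16 and 8.32 in COMBO tumors, against 7.34, 7.54 and 7.02 in bevacizumab tumors, just short of the threshold. Glucocorticoid-induced genes gave 1 of 15 higher, Fkbp5, a chaperone of the glucocorticoid receptor, with 7.90 and 8.92 in COMBO tumors, against 6.17, 7.55 and 6.64 in bevacizumab tumors. Dusp1, a MAP kinase phosphatase of the same list, had 10.86 and 11.19 in COMBO tumors, against 9.63, 9.91 and 10.48 in bevacizumab tumors, without overlap, and passed neither threshold. Clock genes gave 1 of 11 in each direction. Dbp, a clock output factor, was higher, with 9.66 and 9.21 in COMBO tumors, against 8.35, 8.69 and 7.68 in bevacizumab tumors, and Nr1d1, a clock repressor, was lower, with 6.01 and 5.83 in COMBO tumors, against 8.40, 6.74 and 7.62 in bevacizumab tumors. No member passed the methods' threshold in the remaining lists, which held cell cycle, complement, natural killer, mast cell, globin, keratinocyte, nerve, ribosomal, translation, splicing, respiratory chain, apoptosis and housekeeping genes. Their medians ran from -1.08 for globin to 0.51 for nerve genes.

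The same inhibitor without bevacizumab was set beside these values by subtracting vehicle from PLX4720, a comparison that shares no array with COMBO minus bevacizumab. It called 602 higher (5.51% of all tested) and 821 lower genes (7.51%) at an adjusted p under 0.05, and 486 (4.45%) and 702 (6.42%) at the methods' threshold, from 6 arrays in place of 5. Of the 108 genes higher in COMBO tumors 28 were also higher with PLX4720 alone, which is 25.9% of this list and 5.76% of the other, and none was lower. Of the 160 lower genes 43 were also lower with PLX4720 alone, 26.9% of this list and 6.13% of the other, and 2 were higher. In direction alone 89 and 114 genes were alike. Across all 10933 genes both effects correlated at a Pearson r of 0.345 and a Spearman rho of 0.327, which describes genes and not replicates.

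The 4 genes that fell at the adjusted threshold were also lower with PLX4720 alone. Kiss1 had 4.94, 5.25 and 5.33 in PLX4720 tumors, against 9.56, 9.29 and 11.44 in vehicle tumors and lay at least 24.5-fold lower in PLX4720 tumors (adjusted p = 0.000424). Mmp10 had 5.39, 5.27 and 4.83 in PLX4720 tumors, against 7.37, 7.99 and 9.10 in vehicle tumors, and Mgarp had 4.82, 4.93 and 5.59 in PLX4720 tumors, against 8.07, 8.003 and 8.48 in vehicle tumors. Mmp12 had 6.04, 5.46 and 4.93 in PLX4720 tumors, against 8.14, 7.75 and 8.57 in vehicle tumors. For these 4 genes the test of the difference between both effects gave unadjusted p-values between 0.202 and 0.872. Ppp1r9a had 6.83, 5.91 and 6.15 in PLX4720 tumors, against 5.64, 5.30 and 5.20 in vehicle tumors, and its effect was larger with bevacizumab by 1.40, without passing the adjusted test of the difference (adjusted p = 0.184). A p that misses the threshold does not show equal effects.

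Matrix and pericyte lists had negative medians in COMBO minus bevacizumab and medians near or above 0 in PLX4720 minus vehicle, a difference between lists that was not tested. Fibrillar collagens had a median of -1.18 for COMBO minus bevacizumab and 0.02 for PLX4720 minus vehicle, fibroblast genes -1.01 and 0.45, and pericyte genes -0.83 and 0.003. Single pericyte genes departed from that median. Cspg4 had 6.12, 6.54 and 7.002 in PLX4720 tumors, against 8.11, 8.50 and 7.72 in vehicle tumors and fell with PLX4720 alone (log2 fold change -1.55, adjusted p = 0.00762), against -0.97 in COMBO minus bevacizumab, and Mcam had a log2 fold change of -1.12 with PLX4720 alone (adjusted p = 0.0676). For fibrillar collagens the PLX4720 arrays lay far apart, with list means of 7.76, 9.29 and 8.57, against 8.38, 8.39 and 8.72 on the vehicle arrays. PLX4720 replicate 1 thus lay below and replicate 2 above every vehicle array. Col1a1, for example, had 10.73, 12.11 and 11.49 in PLX4720 tumors, against 10.81, 11.27 and 11.71 in vehicle tumors. Thy1 had 10.59, 11.43 and 11.41 in PLX4720 tumors, against 10.08, 10.38 and 10.64 in vehicle tumors, and the difference of the effects was -2.53 (adjusted p = 0.0701). Ltbp4 had 7.98, 8.96 and 8.94 in PLX4720 tumors, against 7.15, 7.06 and 7.86 in vehicle tumors, higher at the methods' threshold where it was lower in COMBO tumors, with a difference of -2.37 (adjusted p = 0.0957). Endothelial genes, by contrast, had medians of -0.74 and -0.92, glucose and hypoxia genes -0.64 and -0.79, and interferon genes 0.62 and 0.96, so these lists leaned the same way with and without bevacizumab. Slc2a1, of the glucose and hypoxia list, had 7.97, 8.25 and 8.22 in PLX4720 tumors, against 10.35, 10.65 and 10.99 in vehicle tumors, and its effect was smaller with bevacizumab by 1.16 (unadjusted p = 0.0069 in limma, adjusted p = 0.205). Arg1, of the alternative activation list, had 7.63, 8.93 and 7.58 in PLX4720 tumors, against 11.68, 12.01 and 11.97 in vehicle tumors, and its effect was smaller with bevacizumab by 2.07 (unadjusted p = 0.00185 in limma, adjusted p = 0.149). Cx3cr1 had 10.95, 9.64 and 9.55 in PLX4720 tumors, against 10.35, 10.39 and 10.19 in vehicle tumors, and its effects differed by 1.66 (adjusted p = 0.205).

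**Figure D5:**
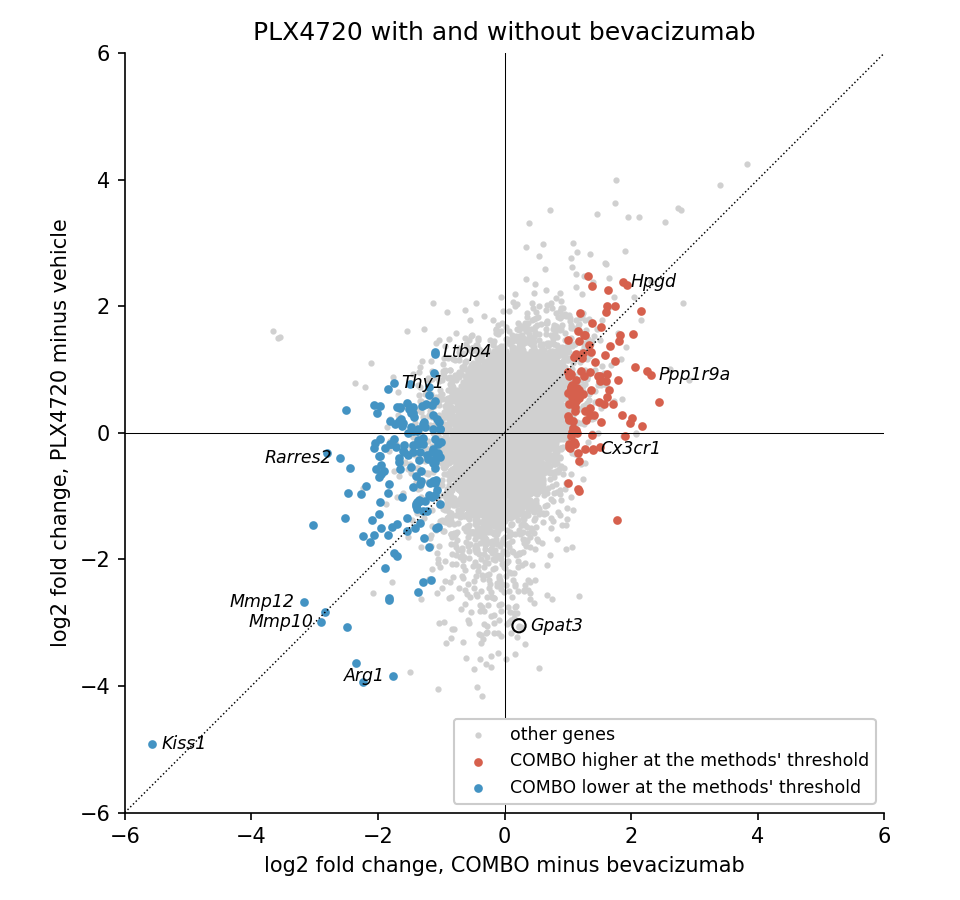
Log2 fold change of COMBO minus bevacizumab (x axis) against that of PLX4720 minus vehicle (y axis) for 10933 mouse genes, with red and blue points for genes past the methods' threshold in COMBO minus bevacizumab, a dotted line of equal effects and a ring on Gpat3. Kiss1, Mmp12 and Mmp10 lie near the line, and Gpat3 lies at 0.23 on the x axis and -3.05 on the y axis.

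In the test of the difference itself 1 gene passed an adjusted p of 0.05 toward a higher value with bevacizumab (0.00915% of all tested) and 0 toward a lower one (0%), with 789 and 746 genes at an unadjusted p under 0.05. Gpat3, a glycerol phosphate acyltransferase of triglyceride synthesis, had 8.28 and 8.19 in COMBO tumors, against 7.92, 8.11 and 8.002 in bevacizumab tumors, and 5.48, 5.83 and 5.81 in PLX4720 tumors, against 8.34, 8.92 and 9.003 in vehicle tumors. The 3 PLX4720 arrays were the low ones. The difference of the effects was 3.28 (adjusted p = 0.00938). Its second probe gave -0.66 for COMBO minus bevacizumab, where the first gave 0.23, but was detected on only 1 of those 5 arrays. With the mean of the probes in place of the brighter one no gene passed. Without COMBO replicate 1 or bevacizumab replicate 3 the count was 0 as well, and without COMBO replicate 2 it was 3.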

How the data were processed

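RNA of 11 whole tumors was read on MouseWG-6 v2.0 bead arrays (2 COMBO, 3 bevacizumab, 3 PLX4720, 3 vehicle). The authors deposited the non-normalized probe signal as a linear intensity exported from GenomeStudio 2011.01, with a detection p-value per probe that their software computed against negative control beads. They also deposited cubic spline normalized intensities, used here as an alternative only.

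From the deposited intensities, neqc of limma 3.58.1 in R 4.3.3 (offset 16) subtracted background, with the negative controls estimated through the detection p-values, applied quantile normalization and gave log2 values. A probe was kept if its detection p was under 0.05 on any array. The array holds 45281 probes, of which 34885 carry 1 symbol, 18 several and 10378 none, and only the first were used, of which 34807 matched the gene table. The probe with the largest mean stood for its gene, which gave 10933 genes. All columns of the tables used were assigned to a labelled sample. Bead arrays give no read depth, and precision is limited by the number of arrays.

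A linear model with 1 mean per group over all arrays was fitted with lmFit and moderated with eBayes (residual degrees of freedom 7, prior 4.92), and p-values were adjusted by Benjamini-Hochberg over all genes tested. Contrasts were COMBO minus bevacizumab, PLX4720 minus vehicle, and their difference. Genes are named where they passed the adjusted test, else by the lowest p among genes past the methods' threshold with non-overlapping groups, as the members of a list with the lowest p, or where the study's text names them. By this rule 98 of the 116 named genes were chosen, and the other 18 were chosen after their values were seen. Members and gene lists were chosen with earlier results of these data known, and lists are described by counts and medians without a test. Scripts were tested on simulated data. Promoters were matched by symbol to RefSeq windows of GRCm38.p6, found for 8803 genes.

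Alternatives were the authors' values, cyclic loess, scaling to the median or to housekeeping genes, omission of the background step, a stricter and no detection filter, only genes detected on the 5 arrays, a fit to the groups compared alone, the mean of probes, array weights (statmod 1.5.0), a replicate block, trended and robust moderation, a muscle covariate, an adjusted p of 0.1, and arrays left out singly or 2 together.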

Additional observations from a re-analysis of the deposited data

Results flagged for a closer look

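The effect of PLX4720 on Gpat3 differed with and without bevacizumab by 3.28 on the log2 scale, by limma's test of the difference over all genes (adjusted p = 0.00938). The log2 fold change was 0.23 for COMBO minus bevacizumab and -3.05 for PLX4720 minus vehicle. The signal was low on 3 of 3 PLX4720 arrays, between 5.48 and 5.83, and between 7.92 and 9.003 on all arrays of COMBO, bevacizumab and vehicle. A second probe of the gene gave -0.66 for COMBO minus bevacizumab and was detected on only 1 of those 5 arrays. No other gene passed in this test, and no cause was tested.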

How the results depend on the processing

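The 5 genes past an adjusted p of 0.05 in COMBO minus bevacizumab became 1 under median scaling and under housekeeping scaling, 2 under cyclic loess, 9 with the mean of probes, 51 with array weights, 8 at an adjusted p of 0.1, and 0 without COMBO replicate 1 and bevacizumab replicate 2 together. Over single arrays left out the count ran from 0 to 8. The 268 genes past the methods' threshold became 114 without background correction, 172 with housekeeping scaling (93 higher, 79 lower) and 131 without both arrays, and ran from 137 to 268 over single arrays left out. Their split of 108 higher and 160 lower turned to 153 and 59 under median scaling, which moved the median of all genes to 0.144. PLX4720 minus vehicle gave 1423 genes, against 5000 under median scaling (median of all genes 0.762), 2301 with housekeeping scaling, 608 with only the groups compared, 611 with the muscle covariate, 777 without both arrays and 2470 at an adjusted p of 0.1, and 1083 to 1515 over single arrays left out. The test of the difference gave 1 gene, against 28 without background correction, 4 under median scaling, 0 with housekeeping scaling, 2 without the detection filter, 0 with the mean of probes, 21 with array weights, 9 with trended and 12 with robust moderation, 0 without both arrays and 30 at an adjusted p of 0.1, and 0 to 3 over single arrays left out. The cause was not tested. A fit to only the groups compared gives no value for the difference, which needs all 4 groups. The correlation of both effects stayed between 0.254 and 0.38.

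With the replicate block, COMBO minus bevacizumab again gave 5 genes past the adjusted p, 4 of them among the first 5, and 244 past the methods' threshold, while the difference gave 13. The labels do not say that a number marks a litter or day, and same-numbered COMBO and bevacizumab arrays correlated at -0.06 and -0.115 in their deviations from the group means.

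Among named genes the sign of COMBO minus bevacizumab turned for Gpat3 with the mean of probes (-0.218) and for Tgfb1 with the muscle covariate (0.129), without COMBO replicate 1 (0.005) and without bevacizumab replicate 1 (0.028). Without COMBO replicate 1 it turned for Il10 (0.052), H2-Aa (-0.254), Cd3e (-0.141) and Cidea (-0.115), and without bevacizumab replicate 2 for Il10 (0.035). Without both arrays it turned for Ccl5 (-0.062), Cd40 (-0.004), Il10 (0.198), H2-Aa (-0.441), Psmb9 (-0.079), Cd3e (-0.205) and Cidea (-0.041). Over single arrays left out, the value ran from -0.274 to 0.052 for Il10, from -0.656 to 0.028 for Tgfb1, from -0.254 to 5.486 for H2-Aa, from -0.141 to 3.33 for Cd3e and from -0.115 to 4.276 for Cidea. These genes passed no threshold in COMBO minus bevacizumab with all arrays.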
